A study of Mus musculus with 32 samples.

Results

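The potassium channel genes comprised 91 of the 19938 genes that the array's annotation names alone for at least 1 probe set. They were taken as every symbol that starts with Kcn, then letters, then a number, and each gene was represented by its probe set of highest mean log2 intensity over all 32 arrays. A total of 94 probe sets matched, since Kcna2, Kcnh8 and Kcnma1 each had a second one. The rule used level alone, and neither tissue nor genotype entered it. By textbook class the largest groups were 15 inward rectifiers, 14 tandem-pore (K2P) subunits, 10 silent Kv subunits and 8 Kv1 alpha subunits. Of the 91, Kcnd3os, Kcnmb4os1 and Kcnmb4os2 were antisense RNAs of channel genes and encode no channel.

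RNA came from blood and from cerebellum of the same young adult mice, and each mouse gave 1 Affymetrix whole-transcript array per tissue, 32 in all. In the Fmr1 cohort, 5 Fmr1-KO mice, without the RNA-binding protein FMRP, were set against 5 WT mice on a C57BL/6 congenic background. In the Tsc2 cohort, 3 Tsc2+/- mice, which keep 1 working copy of the gene of the mTOR inhibitor tuberin, were set against 3 WT mice on a mixed 129/SvJae and C57BL/6J background. Both alterations are germline, so every cell of a mouse carries them. The labels give female for every mouse and the study's methods male. Xist did not exceed 106 on any array and the Y-linked Uty was at least 337 on every array. The intensity of Fmr1 lay between 142 and 306 in Fmr1-KO mice and between 335 and 917 in their WT mice over both tissues. Tsc2 lay between 713 and 999.5 in Tsc2+/- cerebellum and between 1110 and 1176 in WT cerebellum, while in blood the groups overlapped, at 621 to 889.8 and 731 to 1008.

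Potassium channels let potassium leave or enter the cell and so set its resting voltage and end its electrical spikes. Voltage-gated (Kv) and calcium-activated (BK, SK and IK) channels open with a spike, inward rectifiers and tandem-pore (K2P) channels hold the resting voltage, and beta, KChIP, KCNE and silent subunits change how the pore subunits open. In the cerebellum they shape the fast firing of Purkinje cells and the excitability of granule cells, and in blood they maintain the driving force for calcium entry in activated lymphocytes.

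An intensity is the linear level that the PLIER model gives a probe set after the probes of all arrays were quantile normalized together. Intensities of different probe sets are not directly comparable, so differences were tested between arrays and not between genes. The olfactory percentile, the marker sums and the choice of the brightest gene of a class do set probe sets beside each other. They serve as a rough guide alone. As a guide to the background, the median of 1035 olfactory receptor probe sets was 51.9 to 76.5 on the blood arrays and 45.6 to 92.8 on the cerebellum arrays, except for 177 on the cerebellum array of Fmr1-KO mouse 1. The 95th percentile of these probe sets was 165 to 276 in blood against 136 to 271 in cerebellum, and 577 on that array. In WT cerebellum 52 of the 91 genes exceeded the array's percentile on all 5 arrays of the Fmr1 cohort and 53 on all 3 arrays of the Tsc2 cohort, compared with 10 and 16 in WT blood. In Fmr1-KO cerebellum the number was 29 on all 5 arrays, and 48 genes passed on all 16 cerebellum arrays when 1 Fmr1-KO array was allowed to fail. Markers of Purkinje cells and of T cells separated the tissues. The summed intensity of 4 Purkinje cell markers was 21264 to 32105 in cerebellum and 80.2 to 772 in blood, and that of 5 T cell markers was 5234 to 27757 in blood against 188 to 394 in cerebellum. Not every list went with its tissue. The sum of 4 microglia markers was higher in blood, at 1169 to 8025, than in cerebellum, at 819 to 1099. Markers of endothelium and mural cells overlapped between the tissues.

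The first comparison was between the tissues, with genotype as a second term and each cohort fitted alone. In the Fmr1 cohort 62 of the 91 genes were higher in cerebellum and 13 lower at an adjusted p under 0.05 (limma, Benjamini-Hochberg over all 35556 probe sets), where 51.8% and 20% of all probe sets were called. For the channel genes these shares came to 68.1% and 14.3%. In the Tsc2 cohort 55 were higher and 11 lower, or 60.4% and 12.1%, against 31% and 26.4% of all probe sets. The median difference of the channel genes was 1.09 on the log2 scale in the Fmr1 cohort and 0.85 in the Tsc2 cohort, while that of all probe sets was 0.52 and 0.03. When each array was centred on its median, 45 genes were called higher and 26 lower in the Fmr1 cohort (63.4% higher, against 82.7% without centring), and in the Tsc2 cohort the numbers were 51 and 17. The shares of all probe sets above are without centring, so they cannot be set beside the centred numbers. In the Fmr1 cohort the sign of 10 genes called higher turned with this centring, and Kcnh4 (-0.27) and Kcns3 (-0.27) were then called lower, while the other 8 (Kcne1, Kcng1, Kcng3, Kcnip2, Kcnk4, Kcnk13, Kcnk16 and Kcnu1) lost their call. No called gene turned in the Tsc2 cohort. The difference in bulk tissue cannot tell fewer cells of a type from less RNA per cell.

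In both cohorts 52 genes were higher in cerebellum, 8 were lower, and 11 passed in neither, and with median centring the first 2 numbers were 44 and 16. A further 14 passed in the Fmr1 cohort alone and 5 in the Tsc2 cohort alone. Of all probe sets, without centring, at most 31% can be higher in both cohorts and at most 20% lower, the smaller of the single-cohort shares. The exact shares in both cohorts are not given, and the counts by class below have none beside them. Kcne1, a subunit that slows the Kv7.1 channel, was called in opposite directions, with a log2 difference of 0.50 (SE 0.17, limma adjusted p = 0.0114) in the Fmr1 cohort and of -0.51 (SE 0.15, adjusted p = 0.0141) in the Tsc2 cohort, but median centring brought the first to -0.04 and ended its call. Its intensities overlapped between tissues in both cohorts, and it exceeded the olfactory percentile on no array.

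**Figure D1:**
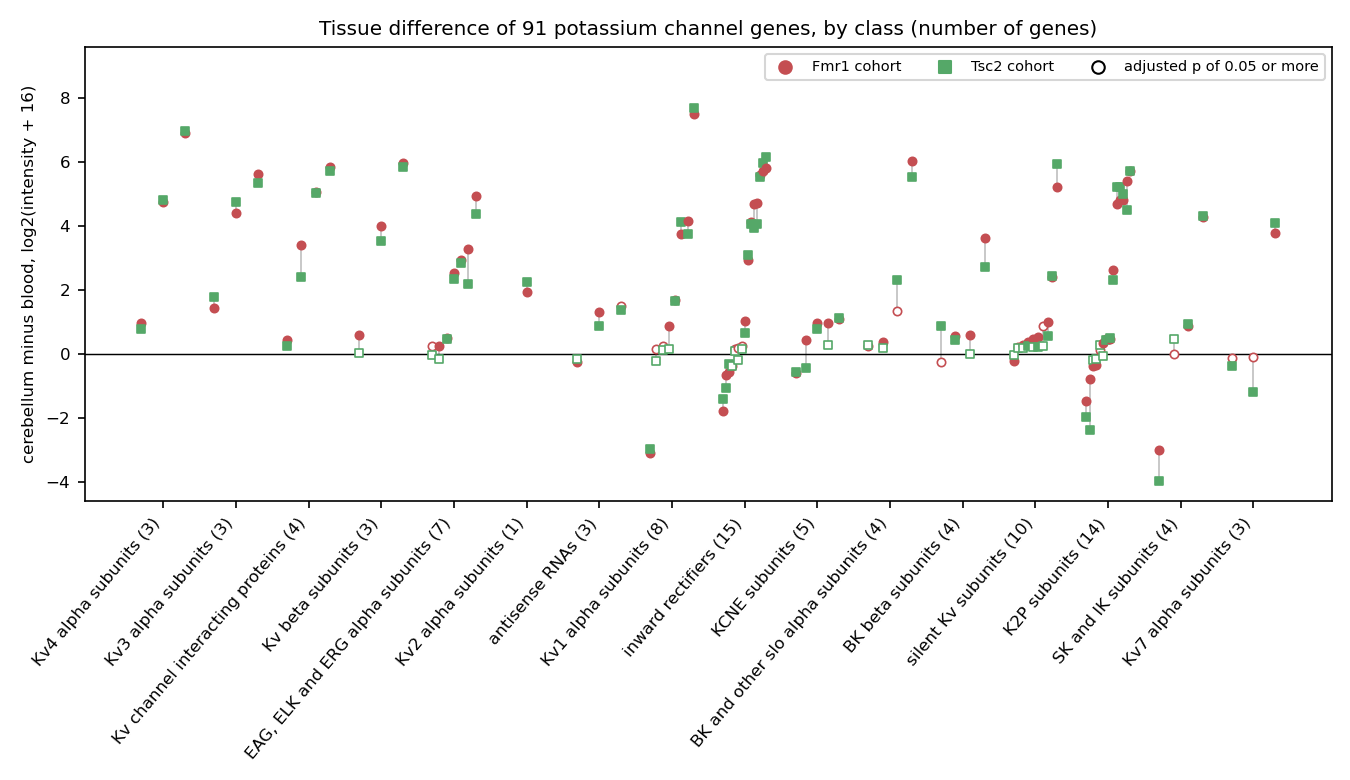
Difference between cerebellum and blood for each of the 91 genes, as log2(intensity + 16), grouped by class with the number of genes in parentheses and the classes ordered by their median in the Fmr1 cohort. Circles are the Fmr1 cohort (10 mice) and squares the Tsc2 cohort (6 mice), a line joins the 2 values of a gene, and open symbols had an adjusted p of 0.05 or more in the fit without the added 16; all members of the Kv3 and Kv4 classes lie above 0, while Kcna3 and Kcnn4 lie near -3 or below.

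Among the Kv1 alpha subunits, which open early in a spike and line axons, 4 of 8 were higher in cerebellum in both cohorts. Kcna1 (Kv1.1, the subunit altered in episodic ataxia) gave 0.00184 to 38.1 with a median of 0.613 on the 10 blood arrays of the Fmr1 cohort, and 2021 to 4772 with a median of 4129 in cerebellum. The Tsc2 cohort gave 0.00678 to 18.6 on the 6 blood arrays and 3865 to 5390 in cerebellum. Every cerebellum array lay far above every blood array, where the probe set stayed under the olfactory median. Because log2 differences of such low values depend on the floor, 16 was also added before the log2, and the value so obtained is given beside the first for the genes with low blood values. The difference was 14.16 (SE 1.84, adjusted p = 1.19e-06) without and 7.50 with it in the Fmr1 cohort, and 11.13 (SE 1.61, adjusted p = 0.000102) and 7.70 in the Tsc2 cohort. Kcna2, its partner in axons, ranged 91.3 to 178 in blood against 2180 to 3440 in cerebellum of the Fmr1 cohort, and from 114 to 349 and from 2729 to 3268 in the Tsc2 cohort. The means differed 20-fold and 13.6-fold. Kcna4 and Kcna6 were the other 2 that rose. Kcna3 moved the other way and is described with the genes that were lower.

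All 3 measured Kv3 genes, whose channels close fast enough to permit high firing rates, were higher in cerebellum in both cohorts. Kcnc1 (Kv3.1) was 18.9 to 68.9 in blood against 2107 to 3044 in cerebellum of the Fmr1 cohort, and 41.2 to 73.3 and 2362 to 3102 in the Tsc2 cohort. No array of one tissue reached the other, and the log2 difference was 6.16 (SE 0.17, adjusted p = 1.57e-16) and 5.73 (SE 0.14, adjusted p = 4.49e-11), or 5.64 and 5.35 with 16 added. Kcnc4 (Kv3.4) differed by 4.67 and 5.09, and Kcnc2 (Kv3.2) by 1.85 and 2.20.

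The 3 Kv4 genes, which carry the A-type current that delays firing, all rose as well. Kcnd2 (Kv4.2, a granule cell subunit) was 5.55 to 92.3 with a median of 13.7 in blood against 3351 to 6339 with a median of 3916 in cerebellum of the Fmr1 cohort. In the Tsc2 cohort it was 9.16 to 19.9 in blood against 3311 to 4655 in cerebellum. The tissues did not overlap, and the log2 difference was 8.004 in the Fmr1 cohort, and 7.996 in the other (SE 0.36 and 0.18, adjusted p = 1.71e-13 and 2.72e-11), or 6.92 and 6.99 with 16 added. Kcnd3 (Kv4.3) differed by 6.86 and 6.17, or by 4.76 and 4.82 with 16 added, and Kcnd1 (Kv4.1) by 1.09 and 0.85. The 4 Kv channel interacting proteins, calcium-binding partners of Kv4, rose as well, except that Kcnip2 lost its call under median centring in both cohorts (difference -0.08 in the Fmr1 cohort) and in the Tsc2 cohort with 16 added (difference 0.24, adjusted p = 0.0526). Kcnip4 was 1.96 to 27.8 in blood against 1140 to 5284 in cerebellum of the Fmr1 cohort and 4.84 to 18.4 and 1279 to 1615 in the Tsc2 cohort, a log2 difference of 7.33 and 7.15, or 5.86 and 5.72 with 16 added. Kcnip1 differed by 6.31 and 6.10, or by 5.05 in each cohort with 16 added, Kcnip3 by 3.72 and 2.54 and Kcnip2 by 0.47 and 0.26.

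Of the other voltage-gated classes, Kcnb2 (Kv2.2), Kcnq3 (a subunit of the M-current, which damps repeated firing) and 5 of 7 EAG, ELK and ERG genes were higher in cerebellum in both cohorts. Kcnq3 was 101 to 208 in blood against 1674 to 2476 in cerebellum of the Fmr1 cohort, and 112 to 194 and 2503 to 3084 in the Tsc2 cohort. Kcnh1 (EAG1) differed by 6.67 and 4.79, or by 4.95 and 4.38 with 16 added, and Kcnh2 (ERG1, the pore of the cardiac rapid delayed rectifier) by 3.71 and 2.32. Kcnq5, a further M-current subunit, had a difference of -0.10 (SE 0.12, adjusted p = 0.469) in the Fmr1 cohort and was lower in cerebellum by -1.30 (SE 0.21, adjusted p = 0.000222) in the Tsc2 cohort. Among the 10 silent subunits, which do not form channels alone, 5 rose in both cohorts, while under median centring 3 were called higher in each cohort and Kcng1 turned to -0.16 in the Fmr1 cohort. Kcng4 (Kv6.4) differed by 5.91 and 7.57, or by 5.21 and 5.93 with 16 added, and was 1387 to 2811 in cerebellum, while Kcnf1 and Kcng1 differed by under 1. The Kv beta subunits Kcnab1 and Kcnab3 rose in both cohorts. Kcnab1 (Kv beta 1, which speeds inactivation) was 4.93 to 22.6 in blood against 1257 to 2158 in cerebellum of the Fmr1 cohort, a log2 difference of 7.14 (SE 0.21, adjusted p = 2.40e-16), or 5.97 with 16 added.

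Calcium- and sodium-activated channels were split. Kcnt1 (the sodium-activated Slack channel, which FMRP protein is known to bind) was 0.0230 to 142 in blood against 1997 to 2707 in cerebellum of the Fmr1 cohort, and 13.0 to 103 and 1880 to 2715 in the Tsc2 cohort. The tissues did not overlap, and the log2 difference was 7.94 (SE 1.07, adjusted p = 1.88e-06) and 6.17 (SE 0.49, adjusted p = 6.84e-07), or 6.05 and 5.53 with 16 added. Kcnmb4 (the neuronal beta subunit of BK) differed by 4.18 and 2.99, or by 3.63 and 2.72 with 16 added, and Kcnn2 (SK2, which sets the pause after a Purkinje cell spike) by 5.52 and 5.31, or by 4.29 and 4.30. Kcnma1, the BK pore itself, gave 2 readings. The probe set that the rule takes (10582545) was 2.61 to 1156 in blood against 188 to 598 in cerebellum of the Fmr1 cohort, a log2 difference of 1.88 (SE 0.85, adjusted p = 0.0551). Its blood values were 54.6, 791, 29.3, 2.61 and 22.7 in the 5 Fmr1-KO mice and 1156, 19.2, 925, 60.2 and 113 in the 5 WT mice. Thus 3 arrays stood above every cerebellum array and the other 7 lay under every one. The second probe set (10418053) was 0.0147 to 15.8 in blood against 1295 to 1739 in cerebellum, and 5.33 to 20.2 and 1487 to 1865 in the Tsc2 cohort. It gave a log2 difference of 8.72 (adjusted p = 3.32e-08) and 7.13 (adjusted p = 1.51e-09), or 6.09 and 5.86 with 16 added. The tissues did not overlap on this probe set, and the 3 arrays were not high on it. The annotation lists RefSeq transcripts for the second probe set and none for the first, so the level of Kcnma1 given by the rule is uncertain.

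Inward rectifiers formed the largest class, and 8 of 15 were higher and 3 lower in cerebellum in both cohorts. The 3 neuronal subunits of the channels that G proteins open (GIRK) were among the higher ones. Kcnj3 (Kir3.1) was 1.63 to 41.2 in blood against 1140 to 1941 in cerebellum of the Fmr1 cohort, Kcnj6 (Kir3.2) was 0.00251 to 10.5 and 289 to 479, and Kcnj9 (Kir3.3) was 54.8 to 75.9 and 3600 to 5044. None of them overlapped between tissues in either cohort, their log2 differences with 16 added were 5.59, 4.14 and 5.73 in the Fmr1 cohort, and Kcnj9 had the smallest adjusted p of all channel genes in both, 4.87e-21 and 1.13e-11. Kcnj10 (Kir4.1, which clears potassium in astrocytes and Bergmann glia) was 2.08 to 33.1 in blood against 1686 to 2256 in cerebellum of the Fmr1 cohort, and 6.93 to 51.4 and 1919 to 2950 in the Tsc2 cohort. Its log2 difference with 16 added was 5.83 and 6.15. Kcnj16 (Kir5.1), which pairs with Kir4.1, differed by 3.6 and 3.51, or by 2.93 and 3.09 with 16 added, Kcnj12 (Kir2.2) by 10.11 and 5.25, or by 4.72 and 4.05 with 16 added, and Kcnj11 (the pore of the ATP-sensitive channel) by 1.09 and 0.69. Kcnj2 (Kir2.1) passed in the Fmr1 cohort alone, with a difference of -0.44 (SE 0.19, adjusted p = 0.0483), and Kcnj15 (Kir4.2) in neither.

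K2P channels, which stay open at rest, had 8 of 14 genes higher and 2 lower in both cohorts. Kcnk1 (TWIK1) was 8.90 to 132 in blood against 2765 to 5559 in cerebellum of the Fmr1 cohort, and 27.5 to 84.0 and 3241 to 4265 in the Tsc2 cohort, with no overlap. Kcnk9 and Kcnk3, the TASK subunits of granule cells, differed by 5.67 and 7.04 in the Fmr1 cohort and by 5.71 and 6.30 in the Tsc2 cohort, or by 4.83 and 4.70 and by 5.01 and 5.22 with 16 added. Kcnk10, Kcnk12, Kcnk2, Kcnk4 and Kcnk16 made up the rest of those that rose, and Kcnk16 stayed under the olfactory percentile on every array. Under median centring Kcnk4 and Kcnk16 both came to -0.04 in the Fmr1 cohort and lost their calls.

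The 8 genes that were lower in cerebellum in both cohorts were Kcna3, Kcnn4, Kcnk6, Kcnk5, Kcnj5, Kcnj1, Kcnj4 and Kcne3. Kcna3 (Kv1.3) and Kcnn4 (the IK channel), the voltage-gated and the calcium-activated channel known from T cells, had the largest falls. Kcna3 was 1966 to 2508 with a median of 2306 in blood against 199 to 385 with a median of 245 in cerebellum of the Fmr1 cohort, and 1554 to 2470 and 202 to 328 in the Tsc2 cohort. The tissues did not overlap, and the log2 difference was -3.19 (SE 0.10, adjusted p = 6.65e-16) and -3.07 (SE 0.15, adjusted p = 8.02e-09). Kcnn4 was 481 to 656.5 in blood against 34.7 to 90.8 in cerebellum of the Fmr1 cohort, and 799 to 1574 and 34.9 to 79.7 in the Tsc2 cohort, a log2 difference of -3.32 (SE 0.14, adjusted p = 1.08e-13) and -4.33 (SE 0.20, adjusted p = 7.26e-09). Kcnk6 (TWIK2) was 314 to 548 in blood against 109 to 284 in cerebellum of the Fmr1 cohort, and 412 to 1224 and 145 to 186 in the Tsc2 cohort. Kcnk5 (TASK2) fell by 0.91 and 2.65 and Kcnj5 (Kir3.4, known mainly from atrial muscle) by 2.00 and 1.62 on the log2 scale. Kcnj1 (Kir1.1, a kidney channel), Kcnj4 (Kir2.3) and Kcne3 had smaller differences, their tissues overlapped in the Fmr1 cohort, as did those of Kcnk5, and Kcnj1 and Kcne3 did not pass the olfactory percentile on any array. Kcnj4 lost its call in the Tsc2 cohort (adjusted p = 0.0292) when arrays were quantile normalized again within tissue, where its difference was -0.10.

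**Figure D2:**
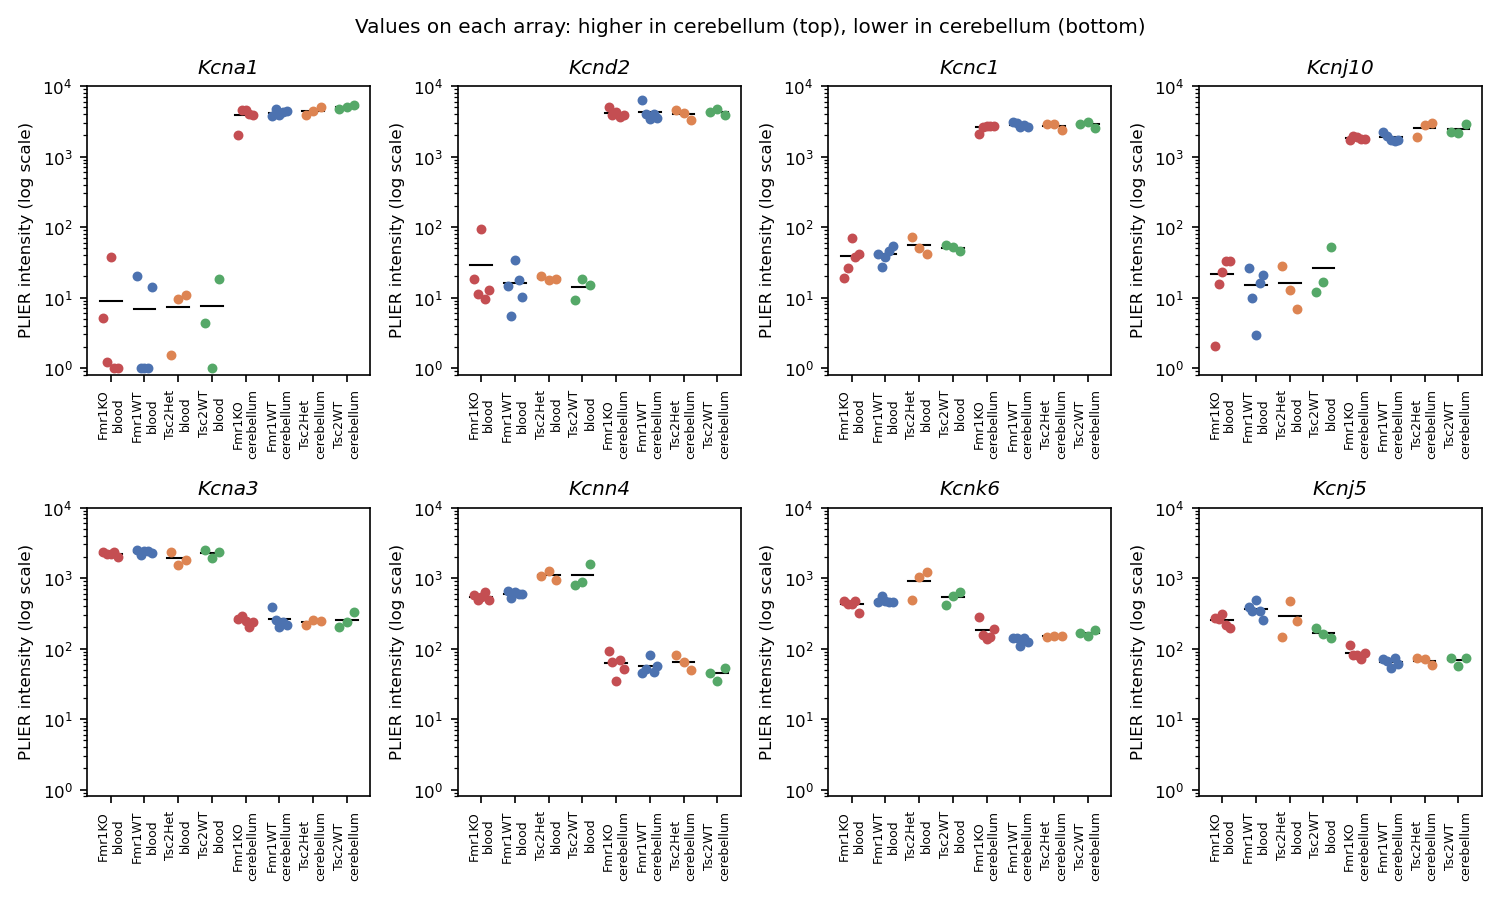
PLIER intensity on a log scale of 4 genes higher in cerebellum (top) and 4 lower (bottom) on each array, by genotype and tissue. A point is 1 mouse, a bar is the group mean of the intensities (n = 5 in the Fmr1 groups and 3 in the Tsc2 groups), and values under 1 are drawn at 1; Fmr1KO and Tsc2Het stand for Fmr1-KO and Tsc2+/- mice, and the tissues do not overlap in any of the 8 panels.

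Kcnab2 (Kv beta 2) and the silent subunit Kcns3 exceeded the olfactory percentile on every array of both tissues. Kcnab2 was 684 to 1181 in blood against 1138 to 2316 in cerebellum of the Fmr1 cohort, with a difference of 0.58 (SE 0.11, adjusted p = 7.41e-05). In the Tsc2 cohort it was 1634 to 1909 and 1442 to 2451, with a difference of 0.01 (SE 0.14, adjusted p = 0.938). At the other end, 14 genes exceeded the percentile on no array, among them Kcna5, Kcna10, Kcnt2 and Kcnu1.

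Promoters are shown for 2 genes that were higher in cerebellum, Kcnd2 and Kcnj12, and 2 that were lower, Kcnn4 and Kcna3. They come first in each direction, by the mean log2 difference of the 2 cohorts with nothing added, among the genes with a single promoter in the RefSeq table (assembly GRCm38.p6), which covered 69 of the 91 genes. The place of Kcnj12 in this order rests on blood values near 0, and Kcnd3, Kcnip4, Kcnj10 and others exceeded it with 16 added. Each line gives the 150 bases before the start of transcription, 5′ to 3′ on the coding strand, which is the plus strand for all 4, and capitals mark the GC box GGGCGG or its reverse complement CCGCCC.
Kcnd2, chr6:21215196-21215345: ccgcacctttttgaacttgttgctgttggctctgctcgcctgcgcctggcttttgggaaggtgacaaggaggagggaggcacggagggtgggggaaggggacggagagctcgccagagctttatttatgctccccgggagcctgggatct
Kcnj12, chr11:61065654-61065803: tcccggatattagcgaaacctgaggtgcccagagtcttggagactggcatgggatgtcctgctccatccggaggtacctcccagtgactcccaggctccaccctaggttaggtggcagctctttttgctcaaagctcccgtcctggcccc
Kcnn4, chr7:24370113-24370262: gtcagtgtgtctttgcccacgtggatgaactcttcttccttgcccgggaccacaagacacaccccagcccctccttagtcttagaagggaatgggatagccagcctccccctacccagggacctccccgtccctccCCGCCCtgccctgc
Kcna3, chr3:107036012-107036161: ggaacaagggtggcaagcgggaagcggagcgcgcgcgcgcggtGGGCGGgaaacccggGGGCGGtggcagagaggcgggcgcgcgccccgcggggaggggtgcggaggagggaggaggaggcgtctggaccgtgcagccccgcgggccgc
The stretch of Kcna3 held 2 GC boxes and 23 CG dinucleotides at 80% G and C, that of Kcnn4 1 box and 4 CG at 62.7%, that of Kcnd2 no box and 7 CG at 60.7%, and that of Kcnj12 no box and 4 CG at 59.3%. Over whole windows of 250 bases before to 50 after the start, GGGCGG stood on either strand in 47.9% of the 94 promoters of channel genes and in 35.7% of all 32851 promoters. It stood in 46.4% of the 56 promoters of 37 genes higher in cerebellum and in 75% of the 8 promoters of 7 genes lower there. TATAAA stood in 5.32% of the channel promoters and 13.6% of all. These letters describe the sequence and say nothing of the factors that act there.

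The second set of comparisons asked whether Fmr1-KO or Tsc2+/- mice differ from their WT mice in channel genes. No channel gene passed an adjusted p under 0.05 in limma in any of these comparisons. Over both tissues, 0 of 91 passed an unadjusted p under 0.01, the threshold the study uses, in Fmr1-KO mice (0 under 0.05), where 0.304% of all probe sets did and 0.00281% passed the adjusted threshold. In Tsc2+/- mice over both tissues 0 passed (1 under 0.05), against 0.436% of all probe sets, and 0% passed the adjusted threshold. Within blood 0 passed in Fmr1-KO mice (2 under 0.05; 0.582% and 0.00844% of all probe sets) and 1, Kcns1, in Tsc2+/- mice (2 under 0.05; 0.298% and 0% of all probe sets). Within cerebellum 0 passed in Fmr1-KO mice (1 under 0.05; 0.197% and 0%) and 0 in Tsc2+/- mice (2 under 0.05; 1.12% and 0.0253%). The counts under 0.05, here and below, are of channel genes alone, and their share of all probe sets is not given. For the comparisons of WT mice below, a rank among all probe sets is given instead. The 2 comparisons over both tissues share their arrays with the comparisons within a tissue.

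**Figure D3:**
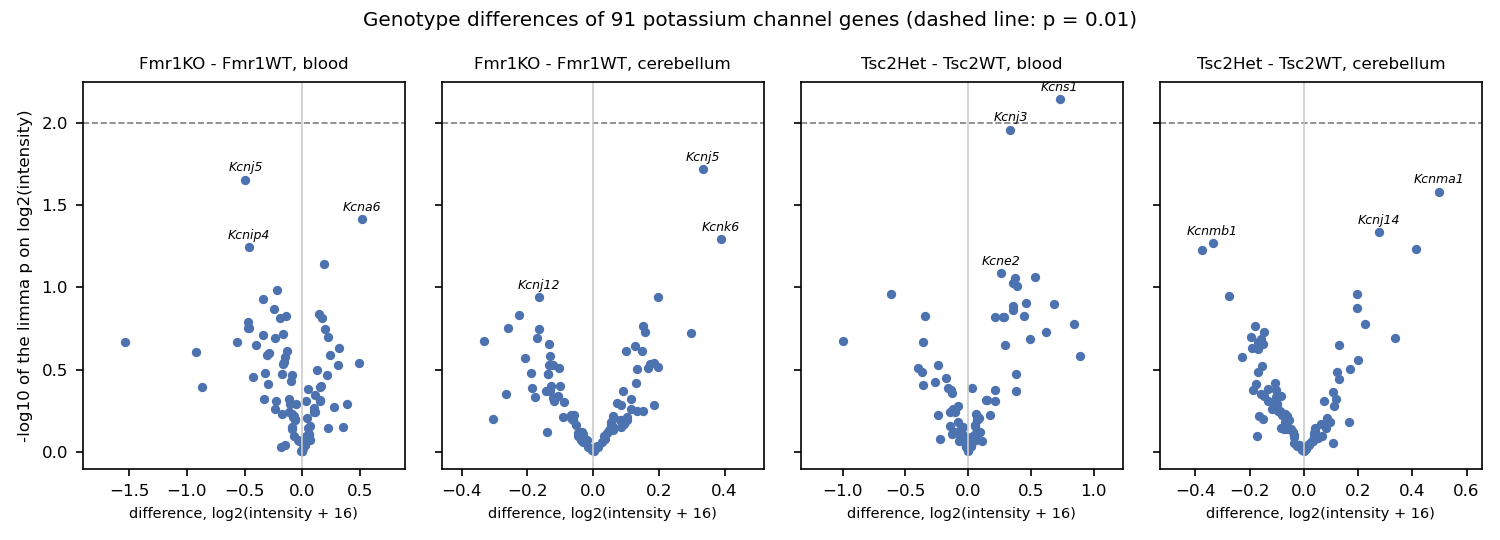
Genotype difference of each of the 91 genes as log2(intensity + 16) on the x axis, against -log10 of the unadjusted limma p from log2(intensity) on the y axis, for 4 comparisons within a tissue. The dashed line marks the threshold of 0.01 and the 3 genes nearest the top are named in each panel; Kcns1 in Tsc2+/- blood is the only point above the line.

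Genes known to interact with FMRP or to be altered without it did not pass. Kcnt1 in cerebellum was 2434, 2146, 2433, 2439 and 2418 in Fmr1-KO mice and 2707, 2575, 1997, 2665 and 2285 in WT mice, and the 2 groups overlapped. Kcnd2, whose RNA FMRP is known to bind, was 4959, 3838, 4228, 3675 and 3857 in Fmr1-KO cerebellum and 6339, 4010, 3351, 3975 and 3562 in WT cerebellum. Kcnc1 was 2107, 2652, 2680, 2740 and 2738 against 3044, 3004, 2630, 2800 and 2628. The genotypes overlapped in each of these genes, and mouse 1 was the highest for Kcnd2 in both genotypes. Kcnmb4, the BK subunit through which FMRP protein acts on spikes, was 571, 603, 547, 628 and 590 in Fmr1-KO cerebellum and 644, 495, 576, 476 and 640 in WT cerebellum. Kcnma1 on the probe set with RefSeq transcripts was 1295, 1627, 1632, 1436 and 1309 against 1739, 1716, 1493, 1598 and 1508 (difference -0.15, adjusted p = 0.999).

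Kcns1 (Kv9.1), a silent subunit that modifies Kv2 channels, was the one gene that passed the threshold of 0.01 within a tissue, and its call depended on the fit. In blood it was 193, 190 and 167 in the Tsc2+/- mice and 83.2, 106 and 128 in their WT mice. The groups did not overlap, and the log2 difference was 0.82 (SE 0.20, limma p = 0.0072, adjusted p = 1.00), while the exact permutation p was 0.1, the smallest that 3 mice against 3 allow. It no longer passed 0.01 without moderation of the variance, in a fit of all 32 arrays or with a replicate block by number, nor when certain mice were left out, where the difference ranged from 0.66 to 0.96. The 3 WT values lay above the olfactory medians of the blood arrays and under the lowest of their 95th percentiles. In blood of the Fmr1 cohort Kcns1 spread from 0.0253 to 208 in Fmr1-KO mice and from 96.9 to 215.1 in WT mice. In cerebellum the values were 166, 150 and 188 against 194, 139 and 163, and the groups overlapped.

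Whether a genotype difference depends on the tissue was tested by the interaction of genotype and tissue. In each cohort 1 of 91 genes passed the threshold of 0.01, where 0.537% of all probe sets passed in the Fmr1 cohort and 0.596% in the Tsc2 cohort, and 0.00844% and 0.00562% passed the adjusted threshold. Kcnj5, a GIRK subunit, was the gene in the Fmr1 cohort. In blood it was 269, 264, 310, 213 and 196 in Fmr1-KO mice and 387, 339, 482, 343 and 256 in WT mice. The Fmr1-KO values were the lower ones on the whole, with 3 of them above the lowest WT value. The log2 difference was -0.52 (SE 0.19, adjusted p = 0.955) and the two-sided exact permutation p was 0.0317. In cerebellum it was 113, 79.7, 80.7, 70.8 and 87.2 in Fmr1-KO mice and 70.5, 65.7, 53.6, 73.4 and 60.2 in WT mice. Here 4 of 5 Fmr1-KO values lay above every WT value, with a difference of 0.41 (SE 0.15, adjusted p = 0.999) and an exact permutation p of 0.0159. The interaction was 0.93 (SE 0.24, limma adjusted p = 0.993), and it was 0.82 without the cerebellum array of Fmr1-KO mouse 1 and 0.86 without those of mouse 1 of both genotypes. All cerebellum values of Kcnj5 lay under the olfactory 95th percentile.

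In the Tsc2 cohort the gene was Kcnj3. It was 23.4, 17.2 and 19.7 in Tsc2+/- blood and 11.3, 12.03 and 14.3 in WT blood, and 1421, 1458 and 1498 against 1547, 1662 and 1303 in cerebellum. The blood groups did not overlap, but each of the 6 blood values was under the olfactory median. The interaction was -0.71 (SE 0.22, limma adjusted p = 1.00) and was -0.37 with 16 added, where it no longer passed 0.01. It also failed to pass under quantile normalization within tissue, median centring, an intensity trend, a fit of all arrays and a replicate block by mouse, and leaving out a mouse moved it between -0.91 and -0.58. Whether a genotype difference depends on the model was tested within each tissue, and 0 of 91 genes passed the threshold of 0.01 in blood (4 under 0.05) or cerebellum (2 under 0.05), where 0.509% and 0.487% of all probe sets passed, and 0.00281% and 0.00844% passed the adjusted threshold.

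**Figure D4:**
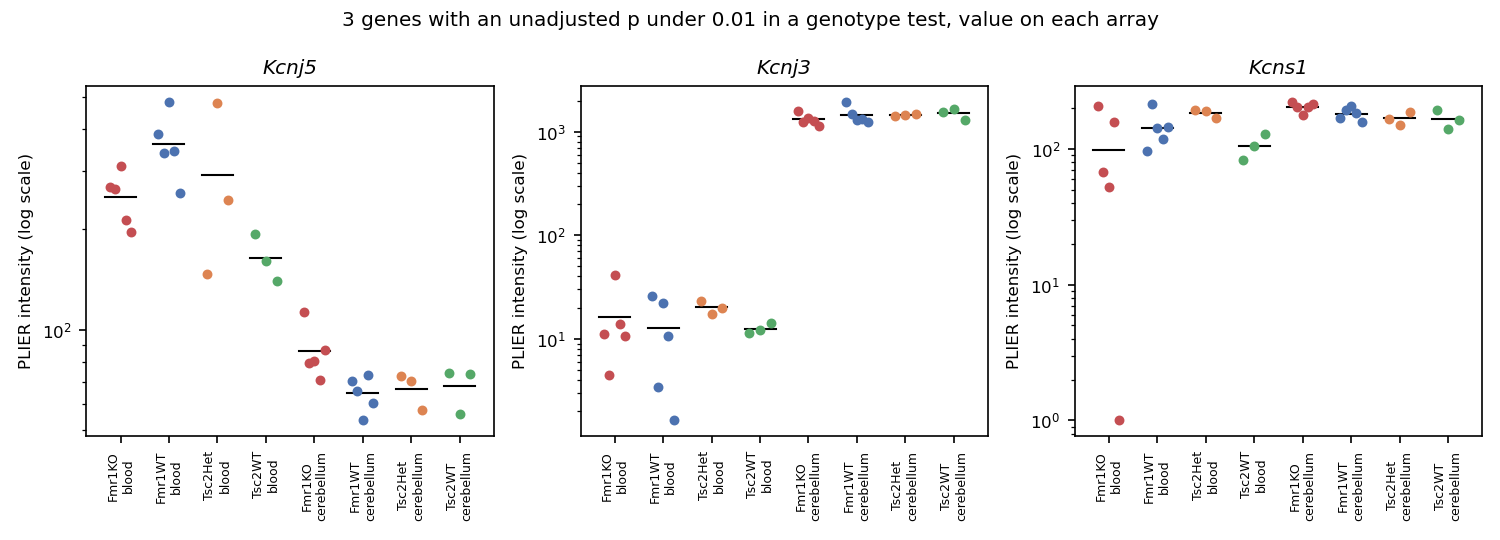
PLIER intensity on a log scale of Kcnj5, Kcnj3 and Kcns1 on each array, by genotype and tissue. A point is 1 mouse and a bar the group mean (n = 5 in the Fmr1 groups and 3 in the Tsc2 groups), with values under 1 drawn at 1; the mean of Kcnj5 is lower in Fmr1-KO than in WT blood and higher in Fmr1-KO than in WT cerebellum, and the genotypes do not overlap for Kcnj3 and Kcns1 in blood of the Tsc2 cohort.

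The WT mice of the 2 cohorts, which differ in strain background, were compared within each tissue, and these comparisons share their WT arrays with those above. In blood 7 of 91 channel genes, or 7.69%, passed the threshold of 0.01, while 12% of all probe sets did. None passed the adjusted threshold (15 under an unadjusted 0.05), which 0.132% of all probe sets passed, with smallest adjusted p of 0.0675, but this count depended on the fit. With 16 added 5 passed it, with a mean log2 of at least 5 the count was 6, with an intensity trend and robust variance 8, with all 32 arrays in 1 fit 10, and 0 to 3 when a mouse was left out. The share of all probe sets in these alternative fits is not given, and 0.132% belongs to the main fit alone. These counts therefore cannot show that channel genes stand out from all probe sets. Kcnab2, Kcnq5, Kcnmb4, Kcnk5, Kcnh2 and Kcnn4 were higher in the Tsc2 cohort and Kcnj5 lower. Kcnab2 was 1634, 1894 and 1765 in the WT mice of the Tsc2 cohort and 1181, 976, 976, 876 and 938 in those of the Fmr1 cohort. Its groups did not overlap, and the log2 difference was 0.84 (SE 0.14, adjusted p = 0.0675). Kcnq5 was 299, 263 and 376 against 186, 113, 114, 143 and 163 (difference 1.13, SE 0.22, adjusted p = 0.0675).

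Kcnn4 was 799, 891 and 1574 against 657, 520, 635, 586 and 587, a difference of 0.80 (SE 0.23, limma adjusted p = 0.0827), which was 0.50 and no longer passed 0.01 without the highest mouse. Kcnh2 was 89.9, 208 and 689 against 66.9, 44.3, 38.9, 78.6 and 37.1, a difference of 2.21 (SE 0.62, adjusted p = 0.0796), and was 1.43 without the highest mouse, where it no longer passed 0.01. For both genes mouse 3 of the Tsc2 cohort gave the highest value. The summed T cell markers were also higher, at 13899, 16855 and 27757 in the WT mice of the Tsc2 cohort and 7169 to 8289 in those of the Fmr1 cohort. Platelet markers were lower, at 32840, 21815 and 1633 against 36214 to 39406. B cell markers, at 15427 to 16789 against 10401 to 14873, and monocyte markers, at 673 to 856 against 551 to 621, were higher. Neutrophil markers overlapped, at 2441 to 8024 against 6798 to 16662. Their part in these differences was not tested. Kcna3, the other T cell channel, was 2470, 1925 and 2347 against 2508, 2108, 2416, 2433 and 2278, and the groups overlapped. Strain, cohort and blood composition cannot be told apart in this comparison.

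In cerebellum 0 of 91 genes passed the threshold of 0.01 between the WT mice (11 under 0.05), where 1.29% of all probe sets did and 0.00562% passed the adjusted threshold. The gene nearest to passing was Kcnj13 (Kir7.1), a channel of the choroid plexus, with a difference of -1.16 (SE 0.38, limma adjusted p = 0.558). It was 449, 300 and 1123 in the WT mice of the Tsc2 cohort and 1288, 1114, 988, 1168 and 1469 in those of the Fmr1 cohort, so that the groups overlapped. In the Tsc2+/- mice it was 236, 769 and 1040, and in the Fmr1-KO mice 1164, 1455, 1246, 1403 and 1317. Transthyretin (Ttr), the main secreted protein of the choroid plexus, was 391, 11662 and 12343 in the Tsc2+/- mice and 5634, 148 and 10953 in their WT mice, against 11082 to 14685 over the 10 mice of the Fmr1 cohort. The summed level of the 3 choroid plexus markers Ttr, Kl and Folr1 was 647 to 14790 in the Tsc2+/- mice, 339 to 13956 in their WT mice and 13186 to 18148 in the Fmr1 cohort. Kcnj13 was lowest on the same 2 arrays as Ttr. Its part in the difference was not tested. Kcne2, a subunit that the choroid plexus also uses, was 134, 201 and 202 in the Tsc2+/- mice and 218, 135 and 200 in their WT mice, with its lowest values again on those 2 arrays.

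A pair of cerebellum arrays stood apart for the Kv channel interacting proteins. Kcnip3 was 1913, 638, 566, 596 and 583 in Fmr1-KO cerebellum and 4998, 579, 597, 562 and 718 in WT cerebellum. Kcnip4 was 3134, 1376, 1276, 1215 and 1216 in Fmr1-KO mice and 5284, 1230, 1140, 1282 and 1399 in WT mice. In both genes mouse 1 of each genotype was the high one, and in the Tsc2 cohort the 6 arrays lay between 619 and 864 for Kcnip3 and between 1279 and 1615 for Kcnip4. Kcnip1 was also highest in WT mouse 1, at 1573 against 821 to 988 in the other 4 WT mice, but Fmr1-KO mouse 1 lay within its group at 907. Kcnip2 was 168 in WT mouse 1 and 186 in Fmr1-KO mouse 1, within the range of each group. Without these 2 arrays the tissue comparison called 74 genes, 61 of them higher in cerebellum, in the Fmr1 cohort, and the genotype comparison over both tissues and that in cerebellum called 0 at either threshold. The WT array also stood apart in hippocampal and cortical genes (Hpca 3969 against 738 to 1157, Lamp5 1520 against 66.8 to 199, Sst 1334 against 236 to 358 in the other 4 WT mice), a list chosen after the data had been seen. The other measured genes of this list are not given singly. Summed over the 6 measured forebrain genes so chosen, the level reached 21975 in Fmr1 WT cerebellum, with a median of 13082. In Fmr1-KO cerebellum, mouse 1 included, it was 10868 to 14343 with a median of 13087. In the Tsc2 cohort it reached 19998 in Tsc2+/- and 20177 in WT cerebellum. Their part in the Kcnip values was not tested.

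**Figure D5:**
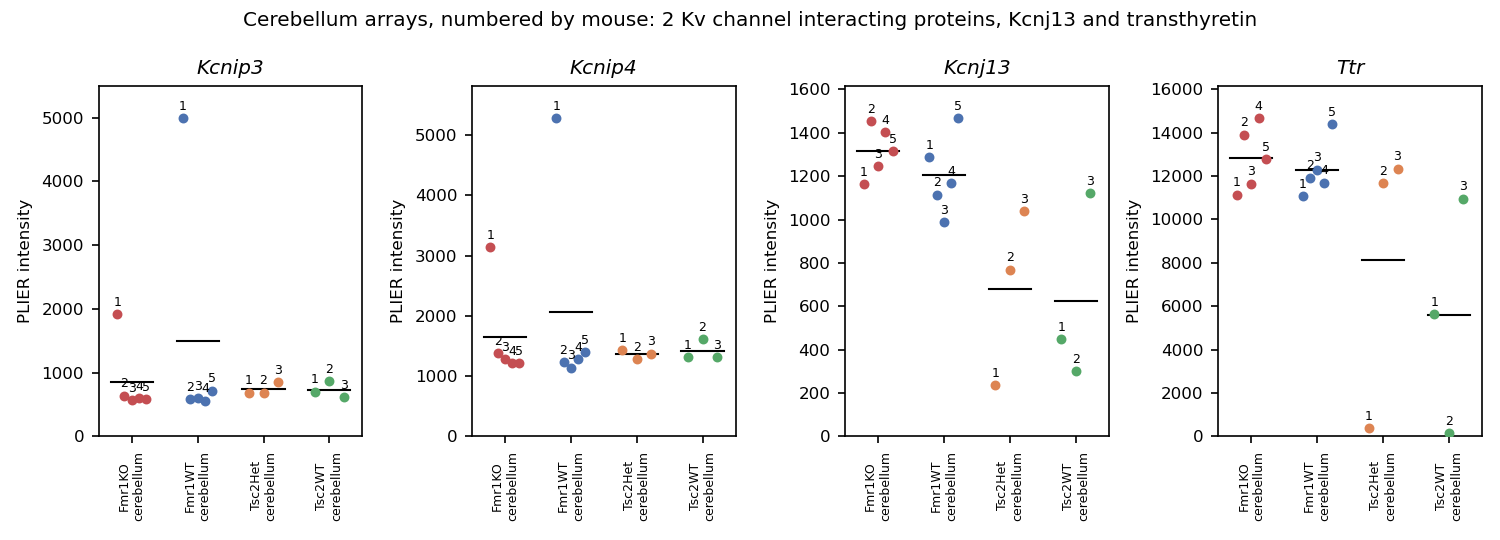
PLIER intensity of Kcnip3, Kcnip4, Kcnj13 and transthyretin (Ttr) on each cerebellum array, with the mouse number above each point and a bar at the group mean (n = 5 in the Fmr1 groups and 3 in the Tsc2 groups). Mouse 1 of both Fmr1 groups stands above the rest for Kcnip3 and Kcnip4, and the mice of the Tsc2 groups spread from 236 to 1123 for Kcnj13 and from 148 to 12343 for Ttr.

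Of 24 genes whose proteins anchor, traffic or resemble potassium channels, 23 were measured. These included the Kv4 partners Dpp6 and Dpp10, the sulfonylurea receptors Abcc8 and Abcc9, the axonal Kv1 scaffold genes Cntnap2, Cntn2, Adam22 and Lgi1, and the HCN pacemaker channels. In the Fmr1 cohort 21 were higher in cerebellum and 0 lower, with a median log2 difference of 2.57, where 51.8% and 20% of all probe sets were called and their median was 0.52. In the Tsc2 cohort 22 were higher and 0 lower, with a median of 2.96, against 31% and 26.4% of all probe sets and a median of 0.03. Median centring left 21 and 22 higher and called 1 lower in each cohort. Lgi1, a secreted protein that binds Adam22, differed by 9.56 and 8.95 and Dpp10 by 7.41 and 6.95, or by 6.33 and 6.78 and by 5.33 and 5.70 with 16 added. Lrrc52, a BK partner of the testis, differed by 0.14 and -0.10 and passed in neither (adjusted p = 0.394 and 0.379). Between genotypes none passed the adjusted threshold, and Abcc8 alone passed 0.01, with a difference of -0.76 (limma adjusted p = 0.999) in Tsc2+/- mice over both tissues, where 0.436% of all probe sets passed 0.01, and -1.27 (limma adjusted p = 1.00) in their blood, where 0.298% did.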

How the data were processed

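Total RNA of blood and cerebellum was labelled and hybridised by the authors to Affymetrix Mouse Gene ST 1.0 arrays. The deposited intensity of each probe set is on the linear scale, and the authors made it with the PLIER model after quantile normalizing the probes of all 32 arrays together (PLIER and Affymetrix Power Tools in the submitters' processing notes; versions not given in the sources used here). Of 35556 probe sets, the platform annotation names 1 gene for 21789, several for 1621 and none for 12146. Only single names were used. Members and gene lists were chosen with earlier results of these data known.

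The log2 of each value, with nothing added, was fitted with lmFit and eBayes (R 4.3.3, limma 3.58.1), with tissue and genotype as terms over both tissues, as in the study's methods, and genotype alone within a tissue. P-values are two-sided and Benjamini-Hochberg adjusted over all probe sets. For named genes an exact permutation test over mice was run within each tissue. The number of arrays limits the precision. Tables were made in Python 3.11.15.

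Genes named by rule were those past the unadjusted threshold of 0.01 in a genotype comparison or interaction, up to 10 past an adjusted 0.05 in each comparison, the 8 largest rises and 8 largest falls between tissues, the brightest of each class in each tissue, and a textbook list. Other genes named were chosen after their values were seen. Alternatives were 16 added before the log2, quantile normalization again within tissue, median centring, a mean log2 of at least 5, the mean of a gene's probe sets, adjustment over probe sets with 1 symbol, an intensity trend with robust variance, no moderation of variance, 1 fit over all 32 arrays, replicate blocks, and leaving out each mouse. Leaving out the cerebellum array of Fmr1-KO mouse 1 together with that of WT mouse 1 was added after seeing the data. The same number within a genotype marks 1 animal in both tissues, and the correlation of the deviations of its 2 arrays was -0.07 to 0.079. The fits were tested on simulated data.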

Additional observations from a re-analysis of the deposited data

Results flagged for a closer look

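Within groups of 5 arrays, a value was singled out when its gap to the nearest other exceeded 0.71 of the group's range (Dixon's test). Of 168 groups over 42 named genes 29 did so, where chance gives about 1 in 20, or 8.4 here, for normal values and independent groups. The test used linear intensities, and the genes share their arrays, so 8.4 is no exact expectation. No explanation was weighed.

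The cerebellum array of WT mouse 1 in the Fmr1 cohort accounted for 13 of them. It was the highest of its group for Kcna3 (385, the other 4 at 204 to 253), Kcnab1 (2158), Kcnab2 (2316), Kcnd1 (335), Kcnd2 (6339), Kcng4 (2811), Kcnip4 (5284), Kcnj6 (479), Kcnk1 (5559), Kcnma1 (598) and Kcnn2 (824), and the lowest for Kcnj15 (72.6) and Kcnj9 (3600). The cerebellum array of Fmr1-KO mouse 1, which has the high olfactory median, was the lowest of its group for Kcna1 (2021, the others at 3894 to 4634), Kcnab1 (1257) and Kcnc1 (2107), and the highest for Kcnd3os (447), Kcne3 (122), Kcnip4 (3134) and Kcnj15 (162). In the same tissue Kcnt1 was lowest in Fmr1-KO mouse 2 (2146, the others at 2418 to 2439).

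In blood, Fmr1-KO mouse 3 was the highest of its group for 3 neuronal channel genes, Kcna1 (38.1), Kcnd2 (92.3) and Kcnj3 (41.2). Kcna1 and Kcnj3 lay under this array's olfactory median of 55.4, and Kcnd2 under its 95th percentile of 201. Its summed granule cell markers were also the highest, at 615 against 162 to 298. Other brain marker lists are not given for this mouse, and a link to the channel values was not tested. The other blood values singled out were Kcnj9 in Fmr1-KO mouse 1 (54.8), Kcnk6 in Fmr1-KO mouse 5 (314) and WT mouse 2 (548), Kcnma1 in Fmr1-KO mouse 2 (791) and Kcnt1 in WT mouse 2 (66.5).

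Over 364 interaction tests of channel genes, 2 differed between groups of samples at an unadjusted p under 0.01. Of all probe sets, 0.537% and 0.596% passed this threshold for genotype by tissue in the Fmr1 and the Tsc2 cohort. For genotype by model the shares were 0.509% in blood and 0.487% in cerebellum. The 2 channel genes do not stand out from these shares. The genotype difference of Kcnj5 was negative in blood (-0.52) and positive in cerebellum of the Fmr1 cohort, which gave an interaction of 0.93 on the log2 scale. That of Kcnj3 was 0.67 in blood and -0.04 in cerebellum of the Tsc2 cohort (interaction -0.71). Neither passed the adjusted threshold.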

How the results depend on the processing

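The number of channel genes called between tissues stayed within 1.5 times of its value under all alternatives run (71 to 77 in the Fmr1 cohort and 61 to 75 in the Tsc2 cohort). Median centring moved the split of these calls in the Fmr1 cohort from 62 higher and 13 lower to 45 and 26, with 60 genes called under both, and turned the sign of 10 genes called higher, of which Kcnh4 and Kcns3 were then called lower. No other alternative turned a called gene between tissues, and none turned one of the genotype, interaction or WT differences at an unadjusted p under 0.01. With the mouse as a replicate block, 75 and 61 genes were called, 62 and 52 of them higher in cerebellum, and Kcnj4 lost its call in the Tsc2 cohort. At the adjusted threshold every genotype, interaction and WT comparison kept 0 calls, except the WT comparison in blood. There 5 genes passed with 16 added, 6 with a mean log2 of at least 5, 4 with adjustment over probe sets with 1 symbol, 8 with an intensity trend and robust variance, 10 with all 32 arrays in 1 fit and 0 to 3 when a mouse was left out (3 when this was WT mouse 1 of the Tsc2 animals). The share of all probe sets in these fits is not given, so these counts cannot be set against a background. The cause was not tested.

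At an unadjusted p under 0.01 the counts were small and moved with the fit. Quantile normalization within tissue gave 1 in Fmr1-KO blood, 11 and 2 between WT mice in blood and cerebellum, and 2 for the interaction in the Fmr1 cohort. A single fit of all arrays gave 1 in Fmr1-KO blood, 0 for the interaction in the Tsc2 cohort and 2 for genotype by model in blood. With no moderation of variance the counts were 0 in Tsc2+/- blood and 4 and 1 between WT mice in blood and cerebellum. With an intensity trend they were 0 for the interaction in the Tsc2 cohort and 1 between WT mice in cerebellum, where 16 added, median centring, the minimum mean log2 and probe sets with 1 symbol also gave 1. The last gave 2 in Tsc2+/- blood. With a replicate block by number, which is no pairing here (correlations -0.09 to 0.228), the count was 1 in Fmr1-KO blood and 0 in Tsc2+/- blood, and with a block by mouse it was 0 for the interaction in the Tsc2 cohort. Blocks changed no other count of genotype calls by over 1.5 times.

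Leaving out each mouse in turn gave 0 to 2 calls in Tsc2+/- mice over both tissues, 0 to 1 in Fmr1-KO blood, 0 to 4 in Tsc2+/- blood, 0 to 1 in Tsc2+/- cerebellum, 3 to 9 and 0 to 5 between WT mice in blood and cerebellum, 0 to 4 for the interaction in the Tsc2 cohort and 0 to 3 for genotype by model in blood. The 5 came from leaving out WT mouse 1 of the Fmr1 animals, both counts of 4 from leaving out WT mouse 3 of the Tsc2 animals, and the 3 for genotype by model from leaving out Tsc2+/- mouse 1. Low intensities limit what can be said of genes within the range of olfactory receptor probe sets.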

Other observations

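The antisense RNAs did not follow one pattern. Kcnmb4os1, antisense to the BK subunit gene Kcnmb4, was higher in cerebellum in both cohorts, by 1.42 (SE 0.15, limma adjusted p = 9.67e-08) and 0.96 (SE 0.14, adjusted p = 8.44e-05) on the log2 scale, while Kcnmb4 differed by 4.18 and 2.99. Kcnd3os, antisense to Kcnd3, was lower in cerebellum in the Fmr1 cohort by -0.26 (SE 0.10, adjusted p = 0.0227) and passed no test in the Tsc2 cohort (-0.17, adjusted p = 0.3), while Kcnd3 differed by 6.86 and 6.17. The second probe set of Kcna2 was 0.900 to 96.9 in blood against 428 to 1168 in cerebellum of the Fmr1 cohort, with no overlap between tissues, as on the first.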
